A study of Mus musculus with 2 samples.

Results

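Genes of melanocytes, the pigment cells that also form the intermediate layer of the stria vascularis, were examined in the fetal mouse cochlea. The set was fixed by gene symbol and holds the pigment genes *Dct*, *Tyr*, *Tyrp1*, *Pmel* and *Mlana* and the lineage regulators *Mitf*, *Kit* and *Ednrb*. Of these 8 genes, 7 were measured, by 14 of the 22626 probe sets that are not controls, and they are 7 of 12393 genes measured in all. No probe set used here is paired with *Mlana*, and no probe set with several symbols names a member. The data are 2 Affymetrix MOE430A arrays with RNA that the labels trace to 8 cochleas each, while the design text describes smaller independent pools. The tissue was dissected at E18.5 with the otic capsule and without vestibular tissue from litters of *Igf1* heterozygous parents on the pigmented C57BL/6J background. The 2 groups are *Igf1* -/- embryos, which carry a targeted disruption of *Igf1* and on this background die at birth, and *Igf1* +/+ embryos from the same kind of mating, with 1 array each.

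The labels do not settle which array is which. The -/- title goes with a +/+ source name and description, and the +/+ title with -/- ones. Both are therefore called by their titles, and every difference is the log2 level on the -/- titled array minus that on the +/+ titled array, after subtraction of the median over all probe sets, 0.022. If the source names hold, each sign below turns. The 3 probe sets of *Igf1* were at 11.03, 7.37 and 7.23 on the -/- titled array and at 11.42, 8.11 and 7.78 on the +/+ titled array. Their differences were -0.42, -0.75 and -0.58, which 3.6%, 0.4% and 1.9% of the 1000 probe sets closest in mean level reached, and the arrays were not assigned a genotype from them. Which part of *Igf1* these probe sets and the disrupted allele share was not examined. A single array per title leaves no replicate, no test and no p-value, so precision is limited by the number of arrays. The nearest thing to a repeat is a gene's second probe set. Within genes, the pooled SD of the differences was 1.17 at mean levels below 5.06, 0.27 from there to 7.68 and 0.10 above. This SD says nothing of the spread between embryos.

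Melanocytes of the inner ear arise from the neural crest. They migrate into the lateral wall of the cochlear duct and become the intermediate cells, whose potassium channel Kir4.1 is needed for the endocochlear potential. Their survival and migration depend on the receptor tyrosine kinase KIT and on the endothelin receptor type B, EDNRB, while the transcription factor MITF switches on the pigment genes. Loss of *Mitf*, *Kit* or *Ednrb* function removes these cells and causes deafness with white spotting in mice, and variants of *MITF* and *EDNRB* underlie forms of Waardenburg syndrome in humans.

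Not all defining markers were read at a high level, and the values carry no detection call. *Dct* and *Pmel*, both largely restricted to pigment cells, were above the median level of all probe sets, 6.60, on both arrays. All 3 probe sets each of *Tyr* and *Tyrp1* were below that median. Of the 14 member probe sets, 6 lay above the median in mean level and 8 at or below it, and 1, of *Tyrp1*, was listed at 0 on the -/- titled array. In whole cochleae, fewer cells of a type and less RNA per cell cannot be told apart.

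**Figure D1:**
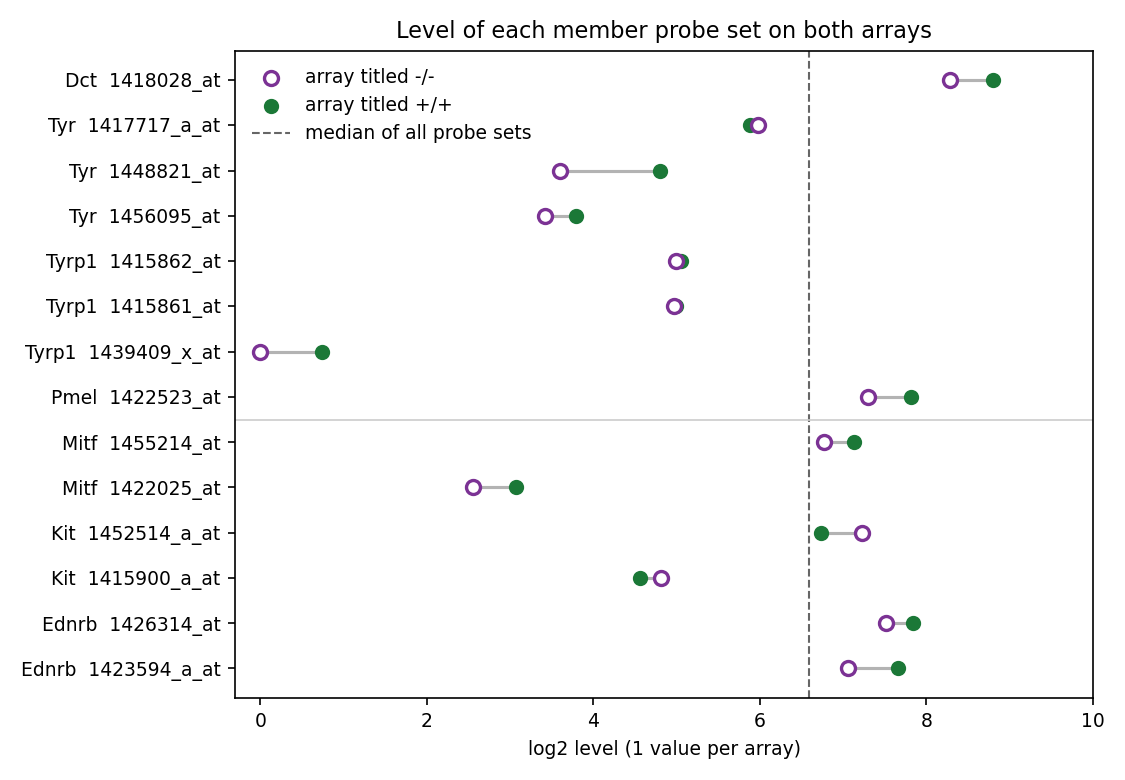
Log2 level of each member probe set on the array titled -/- (open purple) and the array titled +/+ (filled green), joined by a grey line, with 1 value per array, pigment genes above the thin line and lineage regulators below it. *Dct*, *Pmel* and both *Ednrb* probe sets lie right of the dashed median of all probe sets, 6.60, with the open symbol on the left, while both *Kit* probe sets have the open symbol on the right.

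*Dct*, *Pmel*, *Ednrb* and *Mitf* were lower on the -/- titled array and *Kit* was higher, by up to 0.62 log2 units among the probe sets above the median level. Of the 6 such probe sets, 5 were lower and 1 was higher, against 49.7% lower among all probe sets above that level. With each gene read by its strongest probe set, 5 of the 7 member genes were lower and 2, *Tyr* and *Kit*, higher, against 48.2% lower among the 12101 genes above 0 on an array. The median difference of the 7 genes was -0.35, against 0.0028 over all genes. None of the 7 differed by more than 1 log2 unit, the size criterion of the study, which 9.83% of those 12101 genes passed in either direction.

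The melanogenic enzymes form a family of related metalloproteins. Tyrosinase, TYR, makes the first and rate-limiting step from tyrosine, and dopachrome tautomerase, DCT, and TYRP1 act on later intermediates. *Dct* (probe set 1418028_at), which is also an early marker of migrating melanoblasts, was at 8.28 on the -/- titled array and 8.81 on the +/+ titled array. Its difference of -0.54, a linear ratio of 0.686, exceeded the SD of 0.10 between probe sets of a gene at that level, and among its 1000 closest probe sets by mean level 1.5% differed by at least as much. Such shares describe these 2 arrays and are not p-values. *Dct* is read by 1 probe set, so no second reading of it was at hand.

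The 3 probe sets of *Tyr* did not run together. The strongest, 1417717_a_at, was at 5.98 on the -/- titled array and 5.89 on the +/+ titled array, a difference of 0.075, and 82.9% of its neighbours in level differed by at least that. The second, 1448821_at, was at 3.61 and 4.81, in the same order of arrays, a difference of -1.22. It was the only one of the 13 member probe sets above 0 on both arrays to pass 1 log2 unit in either direction. Of all such probe sets 4.63% were lower by that much, a share that leaves out those higher. In either direction 9.83% of the 12101 genes passed it by their strongest probe set. At the level of 1448821_at the SD between probe sets of a gene was 1.17, and 13.7% of neighbours in level differed by at least as much. The third *Tyr* probe set, 1456095_at, was at 3.42 and 3.79, and 68.4% of its neighbours in level reached its difference of -0.39. The direction of *Tyr* therefore depended on the probe set, with the array titled -/- higher in 1 of 3 and lower in the others.

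*Tyrp1* gave nearly the same values on both arrays. Its strongest probe set, 1415862_at, was at 4.99 on the -/- titled array and 5.06 on the +/+ titled array, and the next, 1415861_at, at 4.97 and 5.0. The differences were -0.091 and -0.053, sizes reached by 85.7% and 92.5% of their neighbours in level. The third, 1439409_x_at, of a kind that may cross-hybridise, was listed at 0 on the -/- titled array and was at 0.74 on the +/+ titled array, so no size is given for it.

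*Pmel* encodes the protein that forms the fibrils inside the melanosome on which melanin is laid down. Its probe set, 1422523_at, was at 7.30 on the -/- titled array and 7.81 on the +/+ titled array. The difference was -0.54, a linear ratio of 0.689, nearly that of *Dct*. Of the 1000 probe sets nearest in level, 2.0% differed by at least as much, and the SD between probe sets of a gene was 0.27 there. Over the 4 measured pigment genes 3 were lower and 1 was higher, with a median of -0.31, which lies between the 2 genes read above the median level and the 2 read below it.

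*Tyr*, *Tyrp1* and *Dct* share a sequence feature next to their start sites. MITF binds the M-box, TCATGTG, an E-box extended by a leading T. Windows from 250 bases before to 50 bases after the annotated start were taken from RefSeq on build GRCm38.p6 for the 6 members that the table holds, *Dct*, *Tyr*, *Tyrp1*, *Mitf*, *Kit* and *Ednrb*, with 9 starts in all. The M-box, searched on both strands, occurred in all 3 windows of the enzymes, in *Dct* at 2 places, and in 3.77% of the 32851 windows of all genes. The shorter E-box CATGTG, which every M-box contains, occurred in 14.2% of windows and the palindromic CACGTG in 7.15%, and the members held no CACGTG and no CATGTG outside an M-box. The windows of *Mitf*, with 3 starts, *Kit*, with 2 starts, and *Ednrb* held none of these letters. The 4 matches are shown 5′ to 3′ on the strand of the gene, with 11 bases on either side and the motif in capitals. The upstream match of *Dct* lies on the other strand and so reads CACATGA here.
*Dct*, 232 bases before the start, chr14:118052461-118052489, minus strand: cttggctgggaCACATGAgcccaataaag
*Dct*, 151 bases before the start, chr14:118052380-118052408, minus strand: tgcacttagggTCATGTGctaacaaagag
*Tyr*, 22 bases before the start, chr7:87493517-87493545, minus strand: gaaaaagttagTCATGTGctttgcagaag
*Tyrp1*, 47 bases before the start, chr4:80834155-80834183, plus strand: tggggagggagTCATGTGctgcctagtag

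In the nearer *Dct* match, in *Tyr* and in *Tyrp1* the motif is followed by the same 2 bases, ct, shown in lower case. The 250 bases before the *Dct* start, chr14:118052247-118052496 on the minus strand, are given because *Dct* was the pigment gene with the smallest share of like-level neighbours and its window holds both matches, again in capitals.
*Dct* upstream: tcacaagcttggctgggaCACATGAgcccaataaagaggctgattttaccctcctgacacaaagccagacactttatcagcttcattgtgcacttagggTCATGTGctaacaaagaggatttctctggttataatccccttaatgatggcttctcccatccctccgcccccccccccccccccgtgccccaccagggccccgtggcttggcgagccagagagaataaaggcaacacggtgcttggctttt

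A match of letters is a description and not a measured site. By their strongest probe sets the 3 enzymes with an M-box differed by -0.54 for *Dct*, -0.091 for *Tyrp1* and 0.075 for *Tyr*. By the mean over all probe sets they differed by -0.54, -0.30 and -0.51 in that order. The -0.30 of *Tyrp1* includes the probe set listed at 0 on the -/- titled array, for which no size is given. The other *Tyrp1* probe sets differed by -0.091 and -0.053. At the low levels of *Tyrp1* and of the weaker *Tyr* probe sets the SD between probe sets of a gene was 1.17, so their values are not set apart from the others. *Dct* and the strongest *Tyr* probe set lie where that SD was 0.10 and 0.27, so this reason does not cover them.

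*Mitf*, the bHLH-leucine zipper factor of the lineage, is read by 2 probe sets. The strongest, 1455214_at, was at 6.77 on the -/- titled array and 7.13 on the +/+ titled array, a difference of -0.38 and a linear ratio of 0.768. Of its neighbours in level 11.6% differed by at least as much, and the SD between probe sets of a gene was 0.27. The weaker one, 1422025_at, was at 2.56 and 3.07, a difference of -0.53 that 72.4% of neighbours reached. Both ran the same way, the second at a level where the SD was 1.17. MITF also has forms outside melanocytes, among them in the retinal pigment epithelium, mast cells and osteoclasts, and these probe sets were not assigned to a form.

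*Ednrb*, the receptor for endothelin 3 on melanoblasts, gave lower values on the -/- titled array with both probe sets. The first, 1426314_at, was at 7.52 on the -/- titled array and 7.84 on the +/+ titled array, and the second, 1423594_a_at, at 7.06 and 7.66. The differences were -0.35 and -0.62, linear ratios of 0.787 and 0.651, which 7.3% and 2.1% of their neighbours in level reached. The second difference was the largest of the 6 member probe sets above the median level. The first lies on the boundary at 7.68 between the ranges with an SD of 0.27 and of 0.10 between probe sets of a gene, and the second in the range with 0.27. *Ednrb* is also expressed by glia, endothelium and mesenchyme, so its level in whole cochlea is not that of melanocytes alone.

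*Kit*, the receptor for stem cell factor, ran the other way. Its stronger probe set, 1452514_a_at, was at 7.22 on the -/- titled array and 6.74 on the +/+ titled array, a difference of 0.47 and a linear ratio of 1.38, and 6.5% of its neighbours in level differed by at least as much. The weaker one, 1415900_a_at, was at 4.81 and 4.56, and 74.1% of its neighbours reached its difference of 0.23. Both probe sets were thus higher on the array on which *Dct*, *Pmel*, *Mitf* and *Ednrb* were lower. KIT is also the defining receptor of mast cells, and genes of mast cells were examined beside it. Of 9 measured mast cell markers, 6 were higher and 3 lower on the -/- titled array, against 48.2% lower among all genes above 0 on an array. Their median was 0.42, and their summed linear level was 1151 on the -/- titled array and 972 on the +/+ titled array. The mast cell protease genes *Cpa3* and *Cma1* were at 8.29 and 8.41 on the -/- titled array and at 7.85 and 7.97 on the +/+ titled array, differences of 0.43 and 0.42. *Hdc*, the histamine-forming enzyme, differed by 0.45, *Tpsb2* by 0.38 and *Mcpt4* by 1.01. The 3 that were lower were *Gata2*, a factor shared with many other cells, at -0.53, *Fcer1a* at -0.45, and *Ms4a2*, a defining subunit of the IgE receptor. *Ms4a2* was listed at 0 on the -/- titled array and was at 0.21 on the +/+ titled array. The weaker *Gata2* probe set differed by -0.088, a size that 74.9% of neighbours reached. The part of mast cells in the *Kit* difference was not tested.

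**Figure D2:**
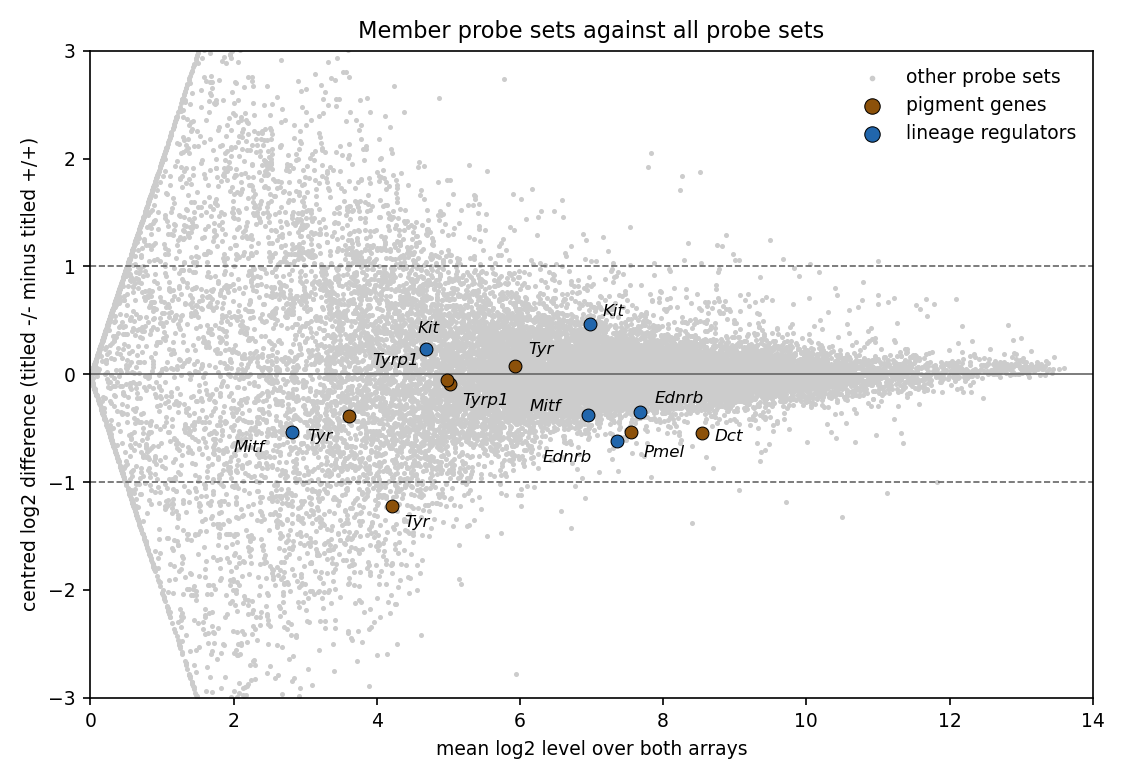
Centred log2 difference (titled -/- minus titled +/+) against the average log2 level of the 2 arrays for each probe set, pigment genes in brown, lineage regulators in blue and all others in grey, and dashed lines at 1 and -1. Points beyond 3 and -3 are not drawn and the *Tyrp1* probe set listed at 0 is not marked. *Dct* at -0.54 and *Pmel* at -0.54 lie on the lower edge of the grey spread at their level, and the *Tyr* point below -1 lies inside the wide spread at low level.

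Pigment genes and lineage regulators were compared as groups. The 4 pigment genes had a median of -0.31 and the 3 regulators one of -0.35, so the medians differed by 0.031, far less than the spread inside either group. Only above the median level the pigment median was -0.54 and that difference -0.20, and with all probe sets of a gene averaged they were -0.52 and -0.068, so the order of the groups is not settled. Pigment genes ran from -0.54 to 0.075 and regulators from -0.38 to 0.47. Over the 13 member probe sets above 0 on both arrays 10 were lower and 3 higher, against 49.0% lower among all such probe sets. Of the 5 members with several probe sets, 1, *Tyr*, had probe sets of opposite direction.

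The genes of melanosome transport and pigment chemistry beyond the members were mostly read at low level. Of 14 listed, 12 were measured, with 8 lower and 4 higher on the -/- titled array, against 48.2% lower among all genes above 0 on an array. The median was -0.062, near that of all genes. *Atp7a*, the copper pump that loads tyrosinase, was at 8.52 on the -/- titled array and 8.61 on the +/+ titled array, a difference of -0.11. *Gpnmb*, a relative of *Pmel* that macrophages and osteoclasts also express, was at 4.29 and 5.47, a difference of -1.21 that 4.8% of its neighbours reached. *Rab27a* was at 4.56 on the -/- titled array and 3.25 on the +/+ titled array, a difference of 1.28 that 17.3% of neighbours reached. In the list 2 genes were lower by more than 1 log2 unit and 1 was higher, against 9.83% of all genes in either direction. *Slc45a2* and *Oca2*, transporters of the melanosome, differed by -0.22 and 0.73, both below a level of 6. A weaker *Slc45a2* probe set differed by 0.62, a size that 74.1% of neighbours reached. An M-box stood in the windows of *Mc1r*, *Slc24a5* and *Trpm1*, 3 of 11 genes of this list in the table. *Slc24a5* was not measured, *Mc1r* was at 0.61 on the -/- titled array and listed at 0 on the +/+ titled array, and the 2 probe sets of *Trpm1* differed by -1.17 and 1.65. An M-box also stood in windows of *Hps1*, *Kcnj13*, *Fcer1a*, *Flg* and *Krt10* of the other lists.

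Organelle biogenesis complexes act in melanosomes and in lysosome-related organelles of other cells. Of their 14 measured genes 8 were lower and 6 higher, with a median of -0.035, against 48.2% lower among all genes above 0 on an array. In the list 2, *Hps1* and *Bloc1s4*, passed 1 log2 unit in opposite directions, against 9.83% of those genes in either direction. The AP-3 subunits *Ap3s1*, *Ap3d1* and *Ap3b1* differed by -0.15, -0.11 and -0.086, and *Bloc1s6* by -0.057, all at levels near 9 or 10. *Hps1* was at 5.40 on the -/- titled array and 4.28 on the +/+ titled array, and 7.9% of neighbours in level reached its difference of 1.10. *Bloc1s4* was at 0.36 and 1.43, both below the 25th percentile of levels, 4.11, and *Bloc1s3* at 6.68 and 6.18, a difference of 0.48 that 9.5% of neighbours reached.

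Ligands of the member receptors were measured as well. *Kitl*, which encodes stem cell factor, was at 8.70 on the -/- titled array and 8.49 on the +/+ titled array by its strongest probe set, a difference of 0.18, and its next probe set differed by 0.66, a size that 4.7% of neighbours reached. Its weaker probe sets, at low level, differed by -0.33 and 0.95, sizes that 70.3% and 48.5% of neighbours reached, so its probe sets did not all run together. *Edn3*, the ligand of EDNRB in this lineage, was at 4.32 and 5.29 by its stronger probe set and at 3.61 and 0.58 by its weaker one, in the same order of arrays, so its probe sets pointed in opposite directions at low level. The endothelin-converting enzymes *Ece1* and *Ece2* differed by 0.084 and -0.17. Of the 6 genes of this list 4 were lower and 2 higher, with a median of -0.12, against 48.2% lower among all genes above 0 on an array.

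The other transcription factors of the lineage had no common direction, with 6 of 10 higher, 4 lower and a median of 0.016. Among all genes above 0 on an array 48.2% were lower. *Sox10*, which acts upstream of *Mitf* and *Dct* and marks glia too, was at 8.91 on the -/- titled array and 9.14 on the +/+ titled array. Its difference of -0.25 was reached by 8.8% of neighbours, while its other probe sets differed by 0.019 and -0.077. By their strongest probe sets *Sox9*, *Zeb2* and *Sox5* differed by -0.15, 0.026 and 0.0068, and *Pax3*, a partner of SOX10 on the *Mitf* promoter, by 0.64 at a level near 5. The other *Sox5* probe sets differed by -0.18, -0.55 and -0.66, sizes that 30.1%, 51.3% and 55.3% of neighbours reached. Of the MITF paralogs, *Tfeb* and *Tfec* differed by -0.53 and -0.17.

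Genes ascribed to intermediate cells apart from pigment gave a median of -0.13 over 5 measured genes. Of these 3 were lower and 2 higher, against 48.2% lower among all genes above 0 on an array. *Kcnj10*, which encodes Kir4.1, was at 6.48 on the -/- titled array and 6.36 on the +/+ titled array, a difference of 0.098 that 72.2% of its neighbours reached and that lies inside the SD of 0.27 at that level. In the study, postnatal Kir4.1 staining also served to mark neural projections and pillar cells. That staining was of protein after birth, and the cells that gave the *Kcnj10* RNA at E18.5 were not examined. The *Kcnj10* level in whole cochlea need not be that of intermediate cells alone. *Gsta4*, a glutathione transferase, was at 8.87 and 9.19, a difference of -0.34 that 4.1% reached. The adhesion gene *Cadm1* and the semaphorin receptor *Nrp2* differed by -0.13 and 0.16, and *Met* by -0.97 below a level of 3.

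**Figure D3:**
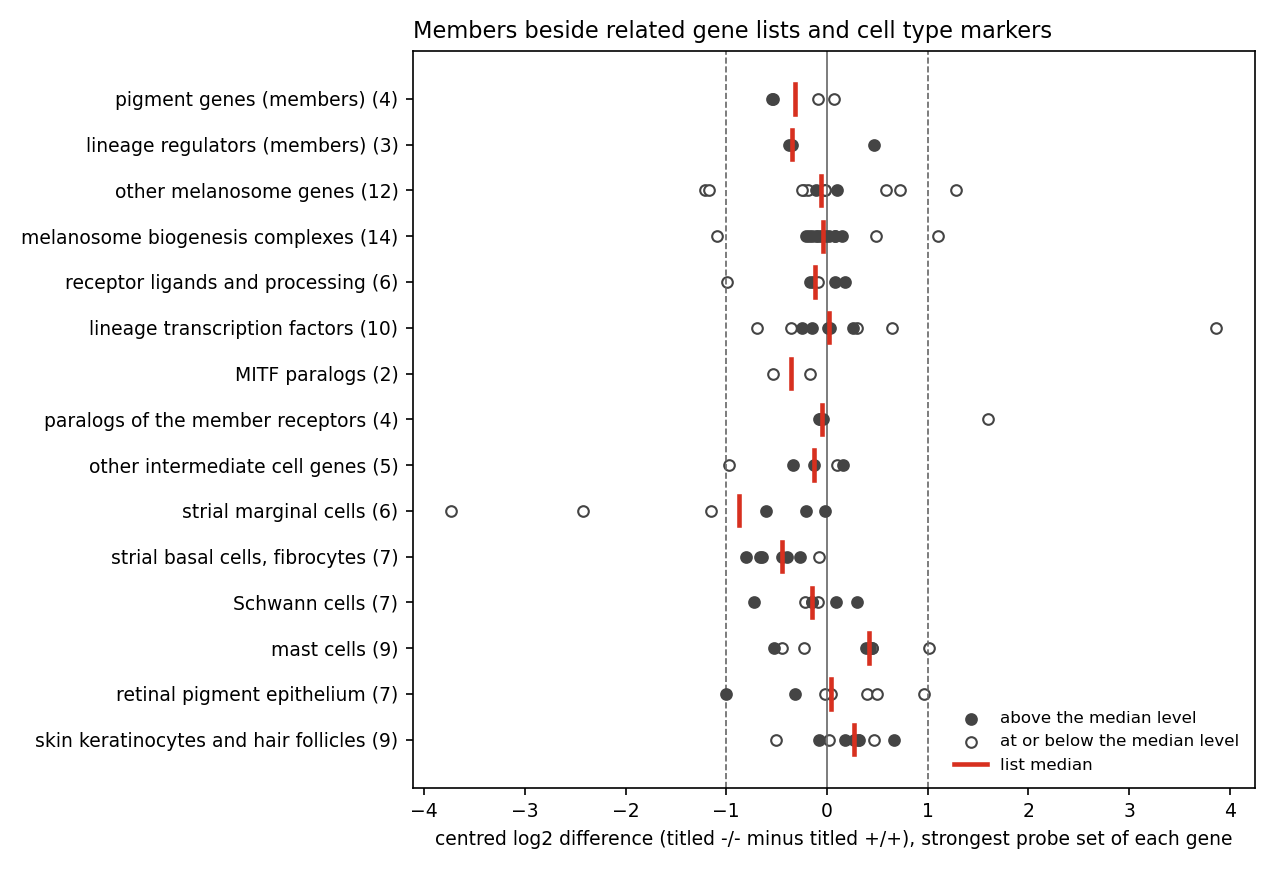
Centred log2 difference (titled -/- minus titled +/+) of each measured gene, by its strongest probe set, in the members and in related lists and cell type markers, with the number of genes in brackets. Filled points lie above the median level of all probe sets, open points at or below it, red bars are list medians and dashed lines mark 1 and -1. All 6 marginal cell genes and all 7 genes of basal cells and fibrocytes lie below 0.

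Markers of the other strial and lateral wall cells had the same direction as *Dct* and *Pmel*. All 7 measured genes of basal cells and spiral ligament fibrocytes were lower on the -/- titled array, with a median of -0.45 and a summed linear level of 2514 on the -/- titled array and 3677 on the +/+ titled array. Among them the tight junction gene *Cldn11*, the connexin gene *Gjb2*, *Coch* and *Pou3f4* differed by -0.45, -0.80, -0.40 and -0.64. Those sizes were reached by 3%, 0.3%, 3.5% and 1.1% of their neighbours in level. *Tbx18* differed by -0.67, a size that 0.9% of neighbours reached, and *Otos* by -0.075, a size that 93.4% reached. All 6 measured genes of marginal cells were lower too, with a median of -0.87. Their summed linear levels were 1370 on the -/- titled array and 1633 on the +/+ titled array. Over all genes above 0 on an array 48.2% were lower. *Slc12a2*, the chloride cotransporter, and *Atp1b2*, a sodium pump subunit, differed by -0.21 and -0.024 at high level. Of their neighbours in level 11.4% and 85.4% differed by at least as much. The other *Slc12a2* probe sets, at levels near 8, differed by -0.31 and -0.42, and the second *Atp1b2* probe set by -0.15. Those sizes were reached by 5.5%, 2.8% and 49.1% of neighbours. *Esrrb*, a nuclear receptor of marginal cells, differed by -0.60, a size that 2.8% of neighbours reached. The channel genes *Kcnq1*, *Kcne1* and *Bsnd* were at 3.42, 0.72 and 3.79 on the -/- titled array, all below the 25th percentile of 4.11. On the +/+ titled array they were at 5.81, 4.43 and 4.91. Their differences were -2.42, -3.73 and -1.15, sizes that 0.4%, 1% and 14.4% of neighbours in level reached. These 3 passed 1 log2 unit, against 9.83% of all genes above 0 on an array in either direction. The sizes rest on low readings, where the SD between probe sets of a gene was 1.17. The median of the list rests in part on them. None of these lateral wall markers was at 0 on either array. Whether the share of lateral wall in the dissected tissue differed between the arrays was not tested.

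Schwann cell genes, which share *Sox10* with melanocytes, were lower in 5 of 7 and higher in 2, with a median of -0.14. Their summed linear levels were 5850 on the -/- titled array and 5755 on the +/+ titled array. The share to set beside the counts of this paragraph is 48.2% lower among all genes above 0 on an array. The myelin gene *Mbp* differed by -0.72, *S100b* by -0.15, *Pmp22* by 0.094 and the precursor marker *Fabp7* by 0.30, and no marker was at 0. Pigment cells also lie in skin and in the eye. Markers of keratinocytes and hair follicles were higher on the -/- titled array in 7 of 9 and lower in 2, with a median of 0.27, among them *Krt15* at 0.67, *Lor* at 0.27 and *Krt5* at 0.18, with *Krt10* at -0.082 and *Krt17* at -0.50 lower, and summed linear levels of 1647 and 1314 in the same order. Of these *Flg* was listed at 0 on the +/+ titled array. The part of skin in the pigment gene values was not tested. Of 7 measured markers of the retinal pigment epithelium 4 were higher and 2 lower, with a median of 0.036. That median is the difference of *Rpe65*, 1 of the 4, which was at or near 0 on both arrays. *Rlbp1*, which encodes a retinoid-binding protein, was at 7.08 on the -/- titled array and 7.38 on the +/+ titled array, a difference of -0.32 that 12.2% of neighbours reached. *Rdh5*, *Otx2* and *Lrat* differed by 0.50, 0.96 and 0.40 at lower levels. *Rgr* was listed at 0 on both arrays and *Rpe65* was at 0.058 on the -/- titled array and listed at 0 on the +/+ titled array. The summed linear level of 2833 on the -/- titled array and 5349 on the +/+ titled array was mostly that of *Ttr*, which the choroid plexus and liver also express. *Ttr* differed by -1.003 by its strongest probe set, just past 1 log2 unit, and by -1.10 and -1.32 by its others, all at high level. Those sizes were reached by 0.3%, 0.1% and 0% of neighbours in level. The part of the eye in the pigment gene values was not tested.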

How the data were processed

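The authors hybridised biotin-labelled cRNA from cochleae to MOE430A arrays. They describe an early pass with MAS5.0 and RMA, then multi-mgMOS (PUMA), and the sources used here do not say which gave the file. The authors deposited 1 log2 value per probe set, between 0 and 13.67, a base inferred from that range, with the scaling between the arrays not stated. After removal of 64 control probe sets, differences were centred on their median. Genes come from the platform annotation, updated through gene identifiers with the RefSeq table of GRCm38.p6, where 20351 of 20380 probe sets with 1 symbol matched. Another 691 had several symbols and were not used to name genes, and 1555 had none. A gene with several probe sets was represented by that of the highest mean level. Summed levels add linear values, with values listed at 0 left out.

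The members and the 15 gene lists were chosen with earlier results of these data known. Named are all members, from each list up to 4 genes with the highest levels over the gene median, 7.10, and genes past 1 log2 unit with both levels above the 25th percentile, 4.11. *Slc45a2*, *Oca2*, *Bloc1s3*, *Bloc1s4*, *Esrrb*, *Krt17*, *Rdh5*, *Otx2*, *Lrat*, *Mc1r*, *Slc24a5*, *Trpm1*, *Edn3*, *Pax3*, *Tfap2a*, *Tfeb*, *Tfec*, *Kcnj10*, *Kcnj13*, *Kcnq1*, *Kcne1*, *Bsnd*, *Met*, *Hdc*, *Tpsb2*, *Fcer1a*, *Ms4a2*, *Flg*, *Rgr*, *Rpe65*, *Tfap2b*, *Flt3*, *Foxd3* and *Snai2* were named outside this rule, after their values were seen. *Tbx18*, *Otos* and *Rab27a* were likewise named outside it, with their values known. Simulated data served to test the steps. Alternatives changed the centring, normalization, floor, level filter, choice of probe sets, size limit and genotype label. Python 3.11.15, numpy 2.4.6, pandas 2.3.3, statsmodels 0.14.6 and matplotlib 3.10.9 were used.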

Additional observations from a re-analysis of the deposited data

How the results depend on the processing

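No member probe set changed direction without centring, after quantile normalization or after loess on the mean level, and the largest shift was 0.11. The medians of pigment genes and regulators moved by less than 0.27 under every alternative except the genotype of the source names. That bound is the SD between single probe sets of a gene at their average level, not the SD of a median. It is close in size to the medians of -0.31 and -0.35 themselves, so staying within it says little of their stability. The genotype of the source names turned the medians to 0.31 and 0.35, the *Tyr* difference of -1.22 to 1.22, and the counts to 2 members lower and 5 higher. Only above the median level, 4 of 5 members were lower and 1, *Kit*, was higher, with a pigment median of -0.54 over 2 genes. With all probe sets of a gene averaged, 6 were lower and 1 was higher, *Tyr* having changed direction, and the medians of pigment genes and regulators were -0.52 and -0.46. Pigment minus regulator medians, 0.031, became -0.20 and -0.068 under these settings, so their order is not settled. With a limit of 2, or low values raised to the 25th percentile, 0 probe sets passed the size limit in place of 1. Without *Kit*, an alternative added after its values were seen, the regulator median was -0.36. No paired analysis was possible because each title has 1 array. Low signal limits *Tyr*, *Tyrp1* and the weaker probe sets of *Mitf* and *Kit*.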

Other observations

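The receptors related to KIT by sequence that are known from mesenchyme, mural cells and macrophages, *Pdgfra*, *Pdgfrb* and *Csf1r*, were at 10.63, 9.74 and 10.01 on the -/- titled array and at 10.68, 9.75 and 10.05 on the +/+ titled array, with differences of -0.079, -0.040 and -0.067 by their strongest probe sets. A second *Pdgfra* probe set was at 6.77 and 7.22, a difference of -0.47 that 6.3% of its neighbours in level reached, nearly the size and share of the *Kit* difference with the opposite sign. The weaker *Pdgfrb* probe set differed by 0.17 and those of *Csf1r* by 0.13 and 0.15, opposite in direction to their strongest probe sets. Those sizes were reached by 26.3%, 33.2% and 34.3% of neighbours. *Flt3* differed by 1.6 at levels of 3.57 on the -/- titled array and 1.95 on the +/+ titled array, and 26% of its neighbours in level differed by at least as much.

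Among neural crest factors *Tfap2b*, read by 1 probe set, was at 4.32 on the -/- titled array and 0.43 on the +/+ titled array. The second value lies below the 25th percentile of levels, 4.11. The *Tfap2b* difference of 3.87, a size that 0.9% of neighbours in level reached, rests on that low reading. The 3 probe sets of its relative *Tfap2a* differed by 0.30, 0.46 and 0.81, sizes that 36%, 46.1% and 46.4% of their neighbours in level reached. *Snai2*, which melanoblasts need for migration and which mesenchyme expresses too, differed by 0.26 at a level near 8, and *Foxd3*, a factor of early crest and glia, by -0.69 at a level near 4.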
